A study of Mus musculus with 6 samples.

Results

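Cxcl1, Cd59a and Aoah are 3 mouse genes of innate immunity that each overlap a region called as differentially methylated between Neil3 knockout and wild type CA1. They were grouped for this function from among genes with called regions. Their regions were sought in the authors' deposited table of 230 called CG regions, within a gene or in the 2 kb before one of its starts of transcription. Gene bounds and starts came from the authors' second table of 36 genes. Each of the 3 genes held 1 such region, so the account rests on 3 of 230 regions. Of all 49603 annotated RefSeq genes, 0.139% overlap a called region. The deposited group means in this contrast chose the regions, and the genes were chosen for holding one and for their function. The levels below are therefore a description with no test.

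The study compared 3 male Neil3-/- mice (labelled N3 -/-) with 3 male wild type mice, all on the C57Bl6 background, between 3 and 6 months old and killed straight from the home cage without any intervention. NEIL3 is a DNA glycosylase that removes oxidised bases. CA1, a pyramidal cell field of the hippocampus, was cut from 8 µm frozen sections by laser microdissection, and its DNA was bisulfite converted and sequenced over the whole genome. Bisulfite sequencing reports the share of reads in which a cytosine stayed protected, and counts 5-methylcytosine and 5-hydroxymethylcytosine together. The dissected tissue holds neurons, glia and vessels, and a change in the cells present cannot be told apart from a change of methylation within a cell type.

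The deposited values are 1 mean per group and region, as a fraction from 0 (no methylation) to 1 (full methylation). The table gives neither coverage nor a value for each animal, so the depth is unknown and no spread between animals, interval or new test could be computed. The first column of means was read as wild type because the sheet title puts wild type first. Of the 230 regions, 118 lie on chromosome 8, which carries Neil3, and 112 elsewhere. Neil3 itself overlaps 3 regions, all lower in the knockout, with authors' means of 0.00347 to 0.695 in the knockout and 0.845 to 0.909 in wild type, where lost methylation cannot be told apart from disrupted sequence. A table of called regions holds no level of cell type markers, so the tissue label could not be checked against them.

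Innate immunity is the fast, germline-encoded defence against microbes and damaged cells. The genes belong to separate arms of it. Cxcl1 encodes a CXC chemokine that draws neutrophils through the receptor CXCR2 and is switched on by NF-κB, in brain for example in astrocytes and endothelial cells. Cd59a encodes a cell surface protein, anchored by a lipid, that stops the membrane attack complex of complement from forming on the body's own cells. Aoah encodes acyloxyacyl hydrolase, an enzyme of macrophages and microglia that removes fatty acids from bacterial lipopolysaccharide and so inactivates it. CpG-rich promoters are as a rule little methylated in cells where they can be used, whereas most CpGs inside genes and between them are methylated.

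The DNA around the starts differs between the genes, and is shown first because the regions of Cxcl1 and Cd59a lie on or beside it. Each sequence is the RefSeq window of 300 bases on GRCm38.p6, plus strand, from 250 bases before the start to 50 from it on, with every CpG in capitals. The windows are chr5:90890995-90891294 for Cxcl1, chr2:104095551-104095850 for Cd59a and chr13:20793863-20794162 for Aoah.
Cxcl1 promoter: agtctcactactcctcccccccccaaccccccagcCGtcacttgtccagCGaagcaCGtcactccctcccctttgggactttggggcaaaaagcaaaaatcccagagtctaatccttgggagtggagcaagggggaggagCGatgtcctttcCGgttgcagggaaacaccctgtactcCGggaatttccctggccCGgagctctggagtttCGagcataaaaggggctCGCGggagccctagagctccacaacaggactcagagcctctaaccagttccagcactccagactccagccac
Cd59a promoter: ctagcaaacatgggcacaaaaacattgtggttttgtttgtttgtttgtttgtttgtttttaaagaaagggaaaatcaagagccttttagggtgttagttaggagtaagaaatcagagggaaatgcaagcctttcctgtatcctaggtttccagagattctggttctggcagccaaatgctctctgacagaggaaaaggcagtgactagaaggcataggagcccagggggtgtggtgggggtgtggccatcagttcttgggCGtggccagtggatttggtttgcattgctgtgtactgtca
Aoah promoter: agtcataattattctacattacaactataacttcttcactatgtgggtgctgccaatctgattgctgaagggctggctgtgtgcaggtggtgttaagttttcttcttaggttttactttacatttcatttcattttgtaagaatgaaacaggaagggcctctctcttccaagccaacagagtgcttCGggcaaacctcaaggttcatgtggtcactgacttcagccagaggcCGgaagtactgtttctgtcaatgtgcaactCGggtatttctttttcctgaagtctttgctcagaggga

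The Cxcl1 window holds 10 CpGs, all before the start and 6 of them in the last 100 bases before it. Its GC content is 58.7%, and its CpGs are 0.397 times as frequent as its C and G content would give. Among all 32851 RefSeq windows the median is 7 CpGs, and 41.4% hold more than Cxcl1. The Cd59a window is poor in CpGs, with 1, placed 10 bases after the start, and 85.9% of all windows hold more. The Aoah window holds 3 CpGs, and 68.6% of all windows hold more. By this measure Cxcl1 has the promoter richest in CpGs of the 3 genes and Cd59a the poorest.

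The called region of Cxcl1 spans the start of the gene. It runs from 90890850 to 90891730 on chromosome 5 (mm10), which is 391 bp before and 489 bp after the first of 2 listed starts, and contains all 300 bases of the window shown above. The authors' mean methylation was 0.308 in knockout CA1 and 0.0831 in wild type CA1, over 69 CpGs in the deposited count. The difference, knockout minus wild type, was 0.225, and the knockout mean was 3.71 times the wild type mean. The share that was unmethylated was accordingly 0.692 in the knockout and 0.917 in wild type. The q-value in the authors' deposited table was 2.50e-20. The start of Cxcl1 was thus little methylated in wild type, and the knockout had the higher level.

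The called region of Cd59a lies just inside the gene. It runs from 104095878 to 104096100 on chromosome 2, and begins 38 bp after the nearer and 77 bp after the farther of 2 listed starts. It lies 28 bp beyond the end of the CpG-poor window shown above and shares no base with it. Over 22 CpGs in 222 bp, the authors' mean was 0.534 in knockout CA1 and 0.276 in wild type CA1. The difference was 0.258 and the knockout mean was 1.93 times the wild type mean. The q-value in the authors' deposited table was 0.000354. Here both groups were at intermediate levels, and the knockout had the higher one.

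The called region of Aoah lies far inside a long gene. It runs from 20867713 to 20868044 on chromosome 13, 73578 bp after the nearest of the early starts and 142589 bp before a late start that the second table lists at 21010633. Its midpoint lies 30.4% of the way along the 242504 bp of the gene. The authors' mean over 37 CpGs was 0.777 in knockout CA1 and 0.379 in wild type CA1. The difference was 0.398 and the knockout mean was 2.05 times the wild type mean. The q-value in the authors' deposited table was 0.0408. Exons are missing from the annotation at hand, so whether this stretch is exonic or intronic was not analysed here. The long noncoding RNA gene Gm32242, which lies within Aoah, begins 68759 bp after the region and does not overlap it.

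**Figure D1:**
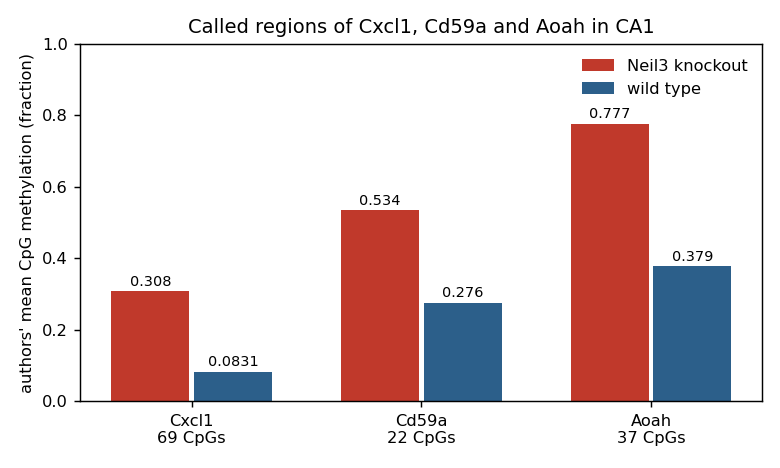
Authors' mean CpG methylation (fraction, 0 to 1) of the called region of each gene, knockout bar left of wild type bar, with the deposited number of CpGs below; each bar is 1 deposited group mean, so there are no error bars. The knockout bar is the taller one in each pair, at 0.308 against 0.0831 for Cxcl1, 0.534 against 0.276 for Cd59a and 0.777 against 0.379 for Aoah.

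**Figure D2:**
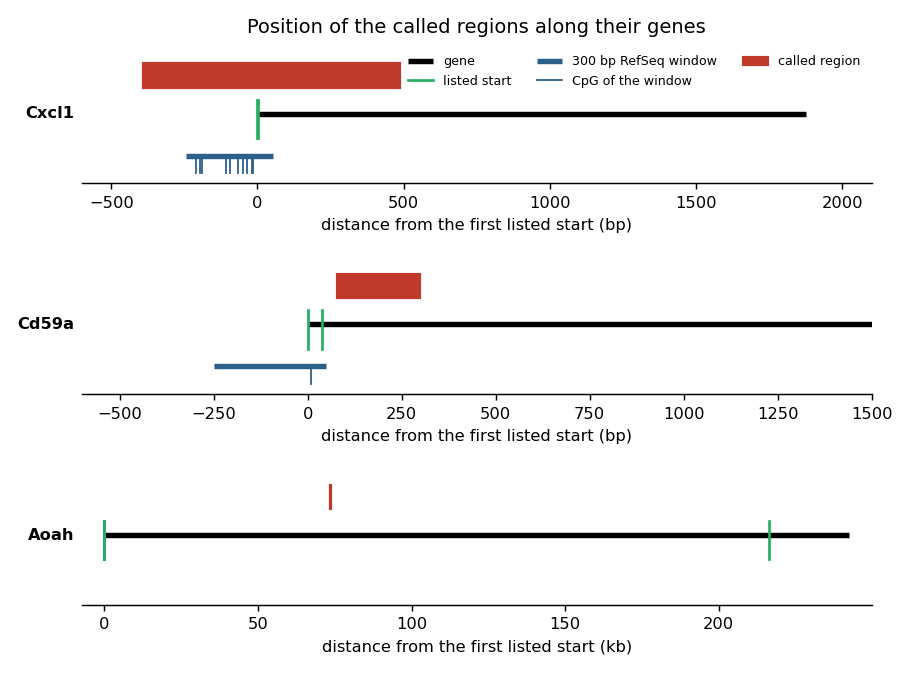
Called region (red), listed starts (green), gene (black) and, for Cxcl1 and Cd59a, the RefSeq window with its CpGs (blue), by distance from the first listed start, in bp for the upper panels and in kb for Aoah; the Cd59a gene runs on beyond the axis. The Cxcl1 region covers the start and the whole window, the Cd59a region begins 77 bp after the first start, and the Aoah region is a thin mark 73600 bp into the gene.

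The levels of the 3 regions stepped up in the same order in both groups. Knockout and wild type means were lowest in Cxcl1, intermediate in Cd59a and highest in Aoah, and so was the difference between the groups. The ratio of the means did not follow that order, being largest in Cxcl1. The q-values ran the other way from the differences, with the smallest q at the smallest difference. Cxcl1 had the 39th smallest q of 230 regions in the authors' deposited table, Cd59a the 163rd and Aoah the 226th, so that only 4 regions of the table had a larger q than Aoah. The deposited q-values reached at most 0.0475, and the region of Aoah is the one of these closest to that limit. The spread between animals behind each q is not given, and whether 1 animal carries a difference was not tested.

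All 3 regions were higher in the knockout, against 29.6% of all 230 regions and 55.4% of the 112 regions outside chromosome 8. The genes were picked from this contrast, so nothing is read from that count. The size of each difference was below the median of 0.442 over the 62 regions outside chromosome 8 that were higher in the knockout. In that set, ordered from the largest difference down, Aoah stood 38th, Cd59a 49th and Cxcl1 50th. The median and these ranks use differences recomputed from the means. For Hnrnpa3, in this set, the authors' difference column gives 0.321 instead of 0.0227, and ranks by that column were not computed. Ordered by the ratio of knockout to wild type mean, Cxcl1 stood 30th, Aoah 47th and Cd59a 50th, and the median ratio of the set was 3.66. The set's median means were 0.702 in the knockout and 0.168 in wild type. Cxcl1 and Cd59a lay below that knockout median and Aoah above it. Wild type means of Cd59a and Aoah lay above the wild type median, and that of Cxcl1 below it.

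**Figure D3:**
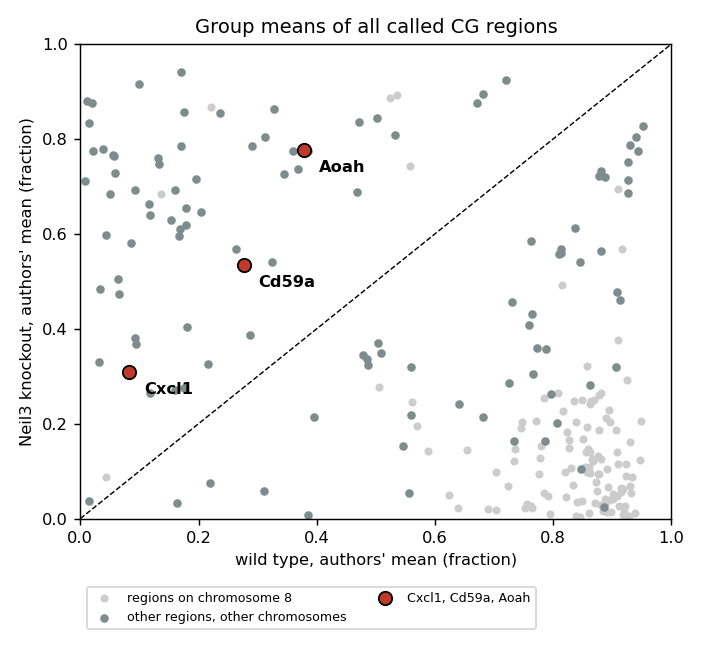
Authors' mean in the knockout (vertical axis) against wild type (horizontal axis), as fractions, for all 230 called regions, with chromosome 8 in light grey and the dashed line at equal levels. Cxcl1, Cd59a and Aoah lie above the line, where 68 of the 230 regions lie, and step from low to high levels in both groups.

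**Figure D4:**
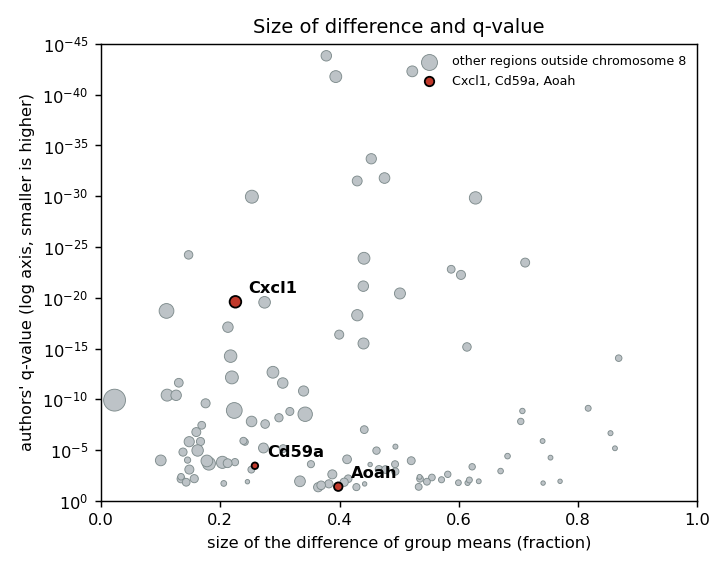
Size of the difference of the group means (fraction) against the authors' q-value (log axis, smaller values higher) for regions outside chromosome 8, with point area growing with the number of CpGs up to a limit; 2 regions with q under 1e-45 lie beyond the axis. Cxcl1 pairs the smallest difference of the 3 genes with the smallest q, and Aoah, at 0.0408, sits at the bottom edge.

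The regions also differed in length and CpG content. That of Cxcl1 was 880 bp long with 7.84 CpGs per 100 bp, that of Cd59a had 9.91 per 100 bp, and that of Aoah had 11.2 per 100 bp over 331 bp, against a median of 8.83 per 100 bp and 417.5 bp outside chromosome 8. By number of CpGs, Cxcl1 stood 18th of those 112 regions, Aoah 54th and Cd59a 87th. The region of Aoah, far from the main starts, was thus the densest of the 3 in the deposited CpG number. The sources used here do not say what the deposited number counts. The Cxcl1 window, inside its region, has 3.33 CpGs per 100 bp by its sequence, 0.425 times the density of the whole region. In each of the 6 RefSeq windows that lie whole inside a called region this ratio was below 1, from 0.425 to 0.726. Whether the number counts each CpG once or once per strand was not tested. Apart from these ratios of window to region, densities are compared here only between regions of the same table.

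Cxcl1 stands in a cluster of related CXC chemokine genes on chromosome 5, and none of the 6 other genes held a called region. Only 0.216% of all protein-coding genes overlap one, so nothing is read from that count. The cluster runs over 146.6 kb from Cxcl5, through Ppbp, Pf4, Cxcl3 and Cxcl15, to Cxcl1 and Cxcl2. Cxcl2, which like Cxcl1 attracts neutrophils through CXCR2, begins 12169 bp after the region. Cxcl3, another chemokine of that kind, ends 102757 bp before it. A gene without a called region is not shown to be alike in both groups, since the table lists called regions only and gives no level elsewhere.

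The windows of Cxcl2 and Cxcl3 are shown because, of the neighbours' windows looked at, these have CpG numbers near that of Cxcl1. They are chr5:90903649-90903948 for Cxcl2 and chr5:90785851-90786150 for Cxcl3, in the same format.
Cxcl2 promoter: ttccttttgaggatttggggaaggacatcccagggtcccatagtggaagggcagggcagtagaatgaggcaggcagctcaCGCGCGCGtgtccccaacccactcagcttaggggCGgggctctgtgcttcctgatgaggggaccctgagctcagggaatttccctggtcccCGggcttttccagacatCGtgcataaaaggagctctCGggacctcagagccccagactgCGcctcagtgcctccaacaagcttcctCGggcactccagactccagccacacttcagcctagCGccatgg
Cxcl3 promoter: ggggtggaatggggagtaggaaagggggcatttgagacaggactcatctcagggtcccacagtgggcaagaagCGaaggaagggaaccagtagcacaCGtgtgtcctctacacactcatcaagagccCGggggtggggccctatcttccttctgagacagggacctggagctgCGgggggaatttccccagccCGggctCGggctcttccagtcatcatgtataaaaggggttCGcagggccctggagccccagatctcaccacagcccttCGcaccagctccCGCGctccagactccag

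With 11 and 10 CpGs, Cxcl2 and Cxcl3 were at least as rich in CpGs as Cxcl1, whereas the windows of Ppbp, Pf4 and Cxcl15 hold 3 CpGs each. Aligned end to end, the Cxcl1 window matched that of Cxcl2 in 53.2% of columns and that of Cxcl3 in 50.6%. Unrelated windows were not aligned for comparison, so these shares are not read as a degree of likeness. The windows of Cxcl1, Cxcl2 and Cxcl3 hold GGAATTTCC, a core of the textbook NF-κB motif, searched on both strands after the sequences had been seen. It begins 70 bases before the start in Cxcl1, 96 before it in Cxcl2 and 72 before it in Cxcl3. Those of Ppbp, Pf4 and Cxcl15 hold it 0 times. No window of Cxcl5 was at hand, so neither its CpGs nor this motif could be looked at. Of all 32851 windows, 104 (0.317%) hold these letters on either strand. In Cxcl1 a CpG stands directly before the motif, with 0 bases between them. In Cxcl3 the nearest CpG before the motif is 3 bases away, and in Cxcl2 it is 38 bases away. These distances look at the side before the motif only. The first CpG after it stands at -55 from the start in Cxcl1, -79 in Cxcl2 and -57 in Cxcl3. The match in Cxcl1 lies inside its called region. A match of letters is a description, and binding was not measured.

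Cd59a has a neighbouring copy, Cd59b, which also encodes an inhibitor of the membrane attack complex. It ends 10088 bp before the region of Cd59a and held no called region. Its window is chr2:104070816-104071115, set on a RefSeq start at 104071066. That start lies inside the gene bounds, which begin at 104069781, so the window is not at the outer end of the gene. To a lesser extent this also holds for Cd59a, with its window set on 104095801 and RefSeq bounds from 104095753. For Aoah the window is set on 20794113 and the RefSeq bounds begin at 20794103.
Cd59b promoter: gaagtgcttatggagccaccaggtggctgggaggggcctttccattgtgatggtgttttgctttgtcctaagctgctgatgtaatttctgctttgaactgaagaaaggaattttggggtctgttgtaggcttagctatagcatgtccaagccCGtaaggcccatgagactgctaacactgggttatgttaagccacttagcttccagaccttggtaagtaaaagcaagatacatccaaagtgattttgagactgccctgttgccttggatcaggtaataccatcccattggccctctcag

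Like Cd59a, Cd59b has 1 CpG in its window, here 98 bases before the start. The windows of Cd59a and Cd59b matched in 41.7% of aligned columns, which is likewise not read as likeness without unrelated windows to compare. The sources used here do not say how reads of similar copies were placed, and sharing of reads inside the region was not tested. The Cd59a window holds GGGTGTGG at 24 and again at 13 bases before the start, letters that 3.56% of all windows hold on either strand. It holds GGGCGTGG from 7 bases after the start, as do 5.33% of all windows, and the only CpG of the window is in it. The Aoah window holds CCGGAAGT, the textbook core of ETS factor motifs, 19 bases before the start, as do 3.89% of windows. None of the windows of Cxcl1, Cd59a and Aoah holds TATAAA on either strand, which 13.6% of all windows do. Only exact letters were searched, so a variant of these letters is not shown to be absent. These motifs were also chosen after the sequences had been read.

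Other called regions lay far from these genes. On chromosome 5 the nearest was 2.35 Mb after the region of Cxcl1, in Gm42116, with authors' means of 0.262 in the knockout and 0.796 in wild type. On chromosome 2 the nearest to Cd59a was 28.4 Mb before it, at Hnrnpa3, with authors' means of 0.0371 and 0.0144 in knockout and wild type. All 4 regions of chromosome 2 were higher in the knockout, against 2 of 4 on chromosome 5 and 11 of 15 on chromosome 13. On chromosome 13 the nearest to Aoah was a pair of regions 1.43 Mb before it, outside annotated genes, both lower in the knockout. The authors' means of the larger change, at 19438562 to 19439107, were 0.286 in the knockout and 0.726 in wild type. These distances show how far the window of 2 kb is from taking in another region.

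Widening the view to other genes of the same arms of immunity added none. Of 23 CXC chemokine and receptor genes, Cxcl1 alone held a called region by RefSeq bounds. Of 41 complement genes, among them C3 and Cd55, Cd59a alone did. Of 22 genes of lipopolysaccharide recognition and inactivation, among them Tlr4, Cd14 and Lbp, Aoah alone did. None of 14 microglia markers, such as Tmem119, P2ry12 and Cx3cr1, held one. Over all lists together 3 of 99 genes held a region, and these are the genes chosen for it, against 0.139% of all annotated genes and 0.216% of protein-coding genes. Counts over the lists are given with no test. With so few genes overlapping a called region at all, nothing is read from the lack of further genes.

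Regions near a start were also counted within the 36 listed genes of the second table. Between 2 kb before and 0.5 kb after a listed start lay 11 of the 230 regions, of which 6 were higher in the knockout. The share of higher regions was 29.6% over all 230 and 55.4% over the 112 outside chromosome 8. Cxcl1 and Cd59a are among the 6 higher regions near a start, and Aoah is not, being far from its starts. The region of Cdk5rap1, which encodes an enzyme that modifies mitochondrial transfer RNA, had authors' means of 0.808 in the knockout and 0.533 in wild type. That of Zc3h7a had authors' means of 0.326 in the knockout and 0.216 in wild type. Those of Hnrnpa3, an RNA-binding protein, and Usp38, a deubiquitinase, stayed close to 0, with 0.0371 and 0.0885 in the knockout against 0.0144 and 0.0436 in wild type. By the deposited means, Cxcl1 had a knockout level 0.225 above wild type from a base below 0.1. Hnrnpa3 and Usp38, from lower bases still, differed by 0.0227 and 0.0449. A low base was common, since 22 of the 62 regions higher in the knockout outside chromosome 8 had a wild type mean below 0.1. Some of them differed by more than Cxcl1, such as 1 on chromosome 15 with 0.880 in the knockout and 0.0118 in wild type. For Hnrnpa3 and Usp38 the authors' difference column gives 0.321 and 0.320 instead, knockout minus wild type, which their means do not give. For Cxcl1, Cd59a and Aoah the column and the means gave the same difference.

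The regions most like each of these were sought outside chromosome 8 by the distance between pairs of group means, over the 2 groups. For Cxcl1 the nearest were at Gm30821, at an unannotated place on the Y chromosome and at Cep85, at distances of 0.0558 to 0.0607. The region at Cep85, a centrosome protein, had authors' means of 0.368 in the knockout and 0.0940 in wild type. For Cd59a the nearest was at Gm43305, with 0.569 in the knockout and 0.264 in wild type at a distance of 0.0370, followed by Mid1-ps1 and Lrrc69. For Aoah the nearest was at Gm26715 and Gm33043 on the same chromosome, 45.5 Mb away, with 0.774 in the knockout and 0.386 in wild type at a distance of only 0.00748. The next was in the pseudogene Vmn2r-ps98, also on chromosome 13, with 0.774 in the knockout and 0.359 in wild type. Likeness of 2 means describes levels only.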

How the data were processed

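Whole-genome bisulfite sequencing of CA1 covered 3 Neil3 knockout and 3 wild type mice. Per the submitters' processing notes, BSMAP aligned the reads and GRCm38 (mm10) was used. The region caller and its coverage minimum, and whether animals were pooled, are not stated in the labels or headers. Per region, the authors deposited a methylation fraction for each group, a q-value (adjusted p-value), a difference of means as a signed score, and a count of CpGs. Their second deposited table gives GC content in percent (not used) beside gene bounds and starts. Differences were recomputed as knockout minus wild type. They equalled the deposited score, its sign turned, within 0.001 in all but 17 of 230 regions, and for Cxcl1, Cd59a and Aoah in every case. Bounds may be off by 1 base, since the counting of positions is not given.

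Regions were matched to genes and to the 2 kb before listed starts with pandas 2.3.3 in Python 3.11.15. RefSeq genes and promoter windows of GRCm38.p6 supplied neighbours and sequences, and all 99 genes of the lists matched by symbol, with 1 further complement gene not reported here. Windows were aligned globally with Biopython 1.88 (match 1, mismatch 0, gap opening -2, gap extension -0.5). Overlap and motif searches were tested on simulated data. Named were the 3 genes, list genes with a region, the 3 most alike regions to each, regions at listed starts that were higher in the knockout and neighbours on the chromosome. The genes, lists and alternatives were chosen with earlier results of these data known. The planned permutation test over animals was not run, since no values per animal are in the files used.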

Additional observations from a re-analysis of the deposited data

How the results depend on the processing

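The 3 regions were found with gene bounds only, with 5 kb before the start, with RefSeq bounds, with a difference of at least 0.2 and with at least 20 CpGs. With q at most 0.01 there were 2, without Aoah, and with a difference of at least 0.3 only 1, that of Aoah, was left. Both limits are stricter than those of the deposited table, which alone explains the smaller counts. The differences of the 3 regions kept their values within 0.001 when taken from the deposited difference. The share of higher regions was then 29.1% over all regions and 54.5% outside chromosome 8, against 29.6% and 55.4% from the means. Both versions use the same regions, and the sign differed in 1 of them, so the closeness of the shares measures no spread. List counts were the same with genes extended by 2 or 5 kb. Distances to a start depended on the point measured. From the midpoint they were 49 bp for Cxcl1, 149 bp for Cd59a and 73743.5 bp for Aoah, and to the farthest listed start 77 bp for Cd59a and 142589 bp for Aoah.

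No paired analysis was possible because the files give no values per animal, and for the same reason leaving out each animal in turn was not run. Depth is unknown for every level given here.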
